A study of Mus musculus with 9 samples.

Results

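Early and late cultures of maturing cortical neurons were compared on 5 of the 9 arrays of the series. The early arrays were Day 2 and Day 4, and the late arrays were Day 6, Day 8 and the control of the oxygen-glucose deprivation (OGD) experiment. A probe was said to separate early from late when its log2 intensity on every late array lay more than 1 above, or on every one more than 1 below, both early arrays. All cultures were primary cortical neurons taken from Swiss albino mouse embryos at gestation day 15, with no genetic change. The cultures named by day were grown without treatment. The control was a Day 6 culture put through the handling of OGD and the 24 hr of reperfusion without being deprived (0 hr OGD), so that its late state includes a change to medium without B27 supplement. Each array carried RNA pooled from 4 experiments, which leaves 1 array for each condition. The arrays of a group differ in culture age. The control differs from the Day 6 array both in handling and by the 24 hr of reperfusion. The spread between the arrays of a group is not a spread between replicates.

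Neurons dissociated from the embryonic cortex extend neurites over the first days in culture and then form synapses, while the genes of the immature neuron give way to those of the connected one. Long noncoding RNAs (lncRNAs) are transcripts without a protein product. Long intergenic noncoding RNAs (lincRNAs) lie between genes, many lncRNAs are read from the strand opposite another transcript, and ultraconserved segments are stretches of the genome that are identical in human, rat and mouse and are in part transcribed. The brain expresses many of them, often in only some cell types or stages. The array held probes for mRNAs and lncRNAs together. Most of them carry only a number of the array design, so that the classes below are those that a probe's name gives. A plus or minus after a lincRNA or ultraconserved segment names the strand of the probe. Of 80 symbols of synapse, immature neuron, progenitor and other cell type genes that were listed for this comparison, 0 could be paired with a probe, and the labelled cell type was therefore not checked against markers.

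The deposited table holds 29929 probes, each with a signal well above background on at least 3 arrays of the series, so that a transcript seen on the early arrays alone could not enter it. Day 2 and Day 4 were scanned together, and the late arrays were scanned at another time with the OGD arrays, so that early and late cannot be told apart from scan. Of the spots that the array design names as negative probes, 52.6% counted as well above background in the Day 4 scan, against 3.46% for Day 2 and between 2.31% and 9.40% for the late arrays, and the part of this in the results was not tested. The late arrays also sat a little higher over the whole table, with a median difference between late and early means of 0.29 on the log2 scale. Without Day 4 that median was 0.06.

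More probes differed between the early arrays than between any pair of late arrays. Of the 29929 probes, 9586 (32.0%) lay more than 1 apart on the log2 scale when the early arrays were compared. Among the late arrays, 2299 probes were that far apart in Day 6 against Day 8, 4177 in Day 6 against the control, and 1734 in Day 8 against the control. Day 2 was nearer to each late array than to Day 4, with 5580 probes apart from Day 6, 5815 from Day 8 and 7536 from the control. Day 4 stood apart from every late array, by 13171 probes for Day 6, 12825 for Day 8 and 13991 for the control. When only the 20574 probes detected above background on each of the 5 arrays were kept, the root mean square difference was 0.98 for the early pair, 0.45 for Day 6 against Day 8, 0.62 for Day 6 against the control, 0.45 for Day 8 against the control, and 0.63 for Day 6 against Day 2. The early pair was the less uniform group by both measures, and Day 4 was the array farthest from the rest.

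**Figure D1:**
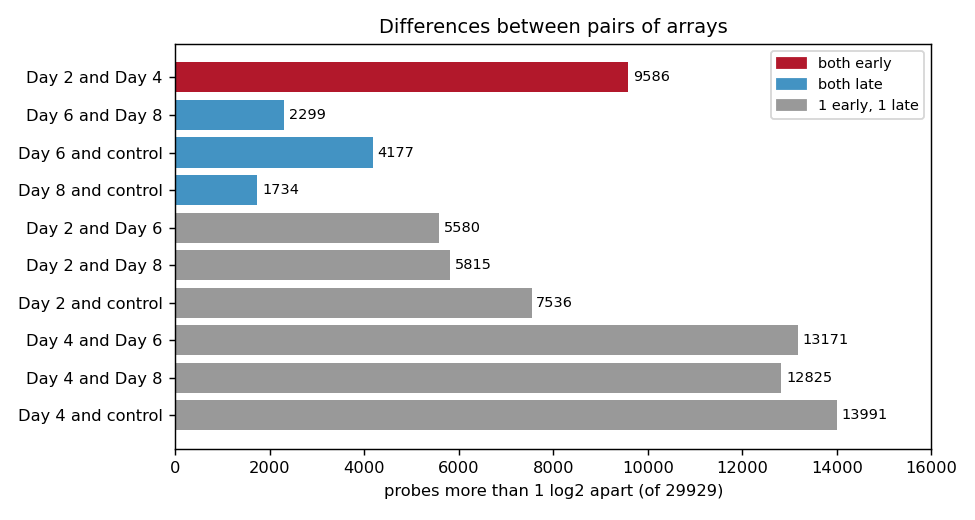
Number of the 29929 probes that lay more than 1 apart on the log2 scale for each pair of the 5 arrays, with 1 bar a pair. The pair of early arrays (9586) exceeds the 3 late pairs (1734 to 4177), and the pairs with Day 4 and a late array are the longest (12825 to 13991).

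Of the 29929 probes, 2017 (6.74%) separated early from late. On the late arrays 1085 of them (3.63%) were higher and 932 (3.11%) were lower. This balance turned with scaling to the 75th percentile (924 higher and 1041 lower) and with scanner values of all transcript probes detected on any of the 5 arrays (1444 and 2596). The higher probes were dim in the early cultures, with a median log2 intensity of 3.56 on Day 2 and 3.12 on Day 4, and reached 5.19 on Day 6, 5.26 on Day 8 and 5.49 on the control. The lower probes had medians of 6.12 on Day 2 and 7.53 on Day 4 and then 4.25, 4.17 and 4.16 on the late arrays in the same order. The rule fixed the distance of both early days from the late ones, but not the order of Day 2 and Day 4. Day 4 was more than 1 above Day 2 in 600 of the 932 lower probes (64.4%), against 3296 of all 29929 probes. By the rule the highest of the 5 values of a lower probe is on Day 2 or Day 4. It was on Day 4 in 869 of the lower probes, against 5844 of all probes. Among the higher probes, Day 2 and Day 4 lay within 1 of each other in 994 of 1085, against 20343 of all 29929 probes. Day 4 was more than 1 above Day 2 in 15 of the higher probes and more than 1 below it in 76. It held the lowest of the 5 values in 706 of them, against 15356 of all probes. In the lower set the early days therefore mostly differed, with Day 4 the higher.

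Just inside the threshold, the closest distances were 1.0002 for a higher and 1.0004 for a lower probe, and just outside it 0.9998 and 0.9990. Distances between 1 and 1.1 were found for 244 of the higher and 129 of the lower probes, and distances over 2 for 77 and 183, so that the lower probes were more often far apart. The smallest p that an exact two-sided permutation test can give for 2 against 3 arrays is 0.2. Fitted across all probes with the days of a group taken as replicates, limma called 1303 probes (4.35%) at a Benjamini-Hochberg adjusted p under 0.05, of which 659 (2.20%) were higher and 644 (2.15%) lower on the late arrays. All 1303 were among the separating probes, where they made up 60.7% of the higher and 69.1% of the lower ones.

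Many separating probes were dim on the side where they were low. Of the higher probes 31.1% were well above background on Day 2, against 81.9% of all probes of the table. Of the lower probes 37.2% were so on Day 6, 44.2% on Day 8 and 73.0% on the control, against 77.0%, 82.9% and 93.7% of all probes. On Day 4, where the negative probes were raised, 81.4% of the higher probes were well above background against 97.4% of all, but 128 of the 1085 higher probes exceeded the 95th percentile of those negative probes, as did 15493 of all 29929. Of the 20574 probes detected on each of the 5 arrays, 638 separated (3.10%), 335 higher (1.63%) and 303 lower (1.47%). With every value under the negative probes' 95th percentile on Day 4, a log2 intensity of 5.41, raised to that level, 561 probes separated. Leaving out an array loosens the rule, and 9150 probes separated without Day 2, 2878 without Day 4 (1624 higher and 1254 lower) and 3096 without Day 6.

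**Figure D2:**
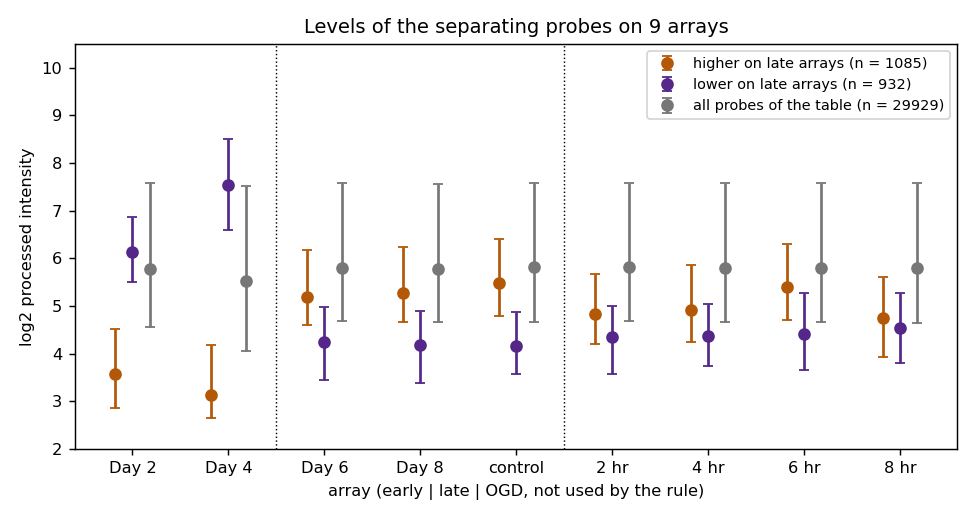
Median log2 processed intensity (points) and quartiles (bars) of the probes higher on the late arrays (1085), lower on the late arrays (932) and of all probes (29929) on each of the 9 arrays. The lower set peaks on Day 4 (7.53), the higher set is low on both early arrays, and on the OGD arrays, which the rule of separation did not use, both sets lie near their late levels.

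The rule of separation did not use the 4 OGD arrays, which were scanned with the late arrays, but they counted toward a probe's entry to the table. Of the separating probes, 170 higher and 229 lower ones were well above background on fewer than 3 of the 5 arrays compared and so entered through an OGD array. The OGD arrays came from Day 6 cultures deprived of oxygen and glucose for 2, 4, 6 or 8 hr and then reperfused for 24 hr. The higher and lower probes were chosen for their values on the same early arrays, so that the shares below are a description, and the share of all probes is not the value expected of them without a change. After 2, 4 and 6 hr of OGD, 96.1%, 96.5% and 96.7% of the higher probes lay above both early arrays, and after 8 hr 85.6% did. Of all probes, 45.2% to 50.4% did so. The lower probes lay below both early arrays in 97.1%, 97.5%, 96.9% and 95.8% of cases, against 22.3% to 26.7% of all probes. On all 4 OGD arrays at once, 877 of the 1085 higher and 842 of the 932 lower probes lay past both early arrays on their late side. Without the probes that entered through an OGD array they were 742 of 915 and 669 of 703. Distance to the late level differed among the OGD arrays. The share of higher probes that lay nearer the late mean than the early mean was 80.6%, 82.5%, 92.4% and 62.3% from 2 to 8 hr, and that of lower probes was 90.3%, 90.1%, 93.3% and 87.4%. On the 8 hr array the higher set had its lowest late-side share and a median of 4.74. This array had the fewest probes of the table well above background (65.6%), and the part of this in the lower share was not tested.

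By class, the probes with only a number made up most of the table, and 1012 of the 26719 (3.79%) were higher and 871 (3.26%) lower. The 4 classes whose names mark a lncRNA held 2519 probes, of which 105 separated (4.17%), 50 higher and 55 lower. This share lay below the 6.74% of all probes. Without Day 2 the count was 684, without Day 4 it was 174 and without Day 6 it was 190. Among them, 48 of the 55 lower probes had their highest value on Day 4, and 40 of the 50 higher and 51 of the 55 lower probes lay on the late side on all 4 OGD arrays.

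Higher and lower probes were counted in each lncRNA class, with no test between classes. Over all probes 3.63% were higher and 3.11% lower. At a distance over 0, higher probes were the majority of those that separated in each of the 4 classes (62.2% to 85.3%). Over all probes the higher share at that distance was 67.1%. Of the 1579 lincRNA exon probes, 29 (1.84%) were higher and 47 (2.98%) lower on the late arrays. The order of these counts depended on the setting. Higher exon probes made up 38.2% of those that separated, but 62.2% at a distance over 0, 63.4% by a difference of means over 1, 68.8% without Day 2 and 52.9% without Day 6. Over all separating probes the higher share was 53.8%, and in those settings 67.1%, 64.2%, 66.5% and 58.3% in the same order. It was 56.4% without Day 4, 54.5% without the control and 47.0% with scaling to the 75th percentile. The 76 exon probes that separated became 455 without Day 2, 115 without Day 4 and 138 without Day 6. Of the 301 ultraconserved segment probes, 10 (3.32%) were higher and 1 (0.332%) was lower. These 11 became 83 without Day 2, 22 without Day 4 (63.6% of them higher), 24 without Day 6 (79.2%) and 21 without the control (90.5%). They became 1 among probes detected on each of the 5 arrays, and 0 after normexp background correction. Of the 406 probes named as human lincRNAs, 6 were higher and 5 lower, and of the 233 mouse lincRNA probes 5 were higher and 2 lower. Without Day 2, Day 4 and Day 6 in turn, the 11 human probes became 90 (84.4% higher), 19 (42.1%) and 15, and the 7 mouse probes 56, 18 and 13. Without the control the human probes were 16 and the mouse probes 15. With scaling to the 75th percentile 33.3% of the human probes that separated were higher. The classes also differed in level. The median log2 intensity over the 5 arrays was 4.96 for ultraconserved segments, 5.18 for human lincRNAs and 5.26 for mouse lincRNAs against 5.55 for lincRNA exons and 5.68 for numbered probes, and the part of level in the class shares was not tested. Among transcripts named by public accession, 19 of 546 GenBank probes (3.48%) were higher and 4 (0.733%) lower, 1 of 51 Ensembl probes and 1 of 32 UCSC probes were lower, and 4 of 62 RefSeq probes (6.45%) were higher and 0 lower, against 3.63% higher and 3.11% lower over all probes. Without Day 2 these classes had 152, 10, 10 and 26 separating probes in the same order. Without Day 4 GenBank had 36 (72.2% higher). Without Day 6 GenBank had 47 and RefSeq 8, and after normexp correction both had 0.

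**Figure D3:**
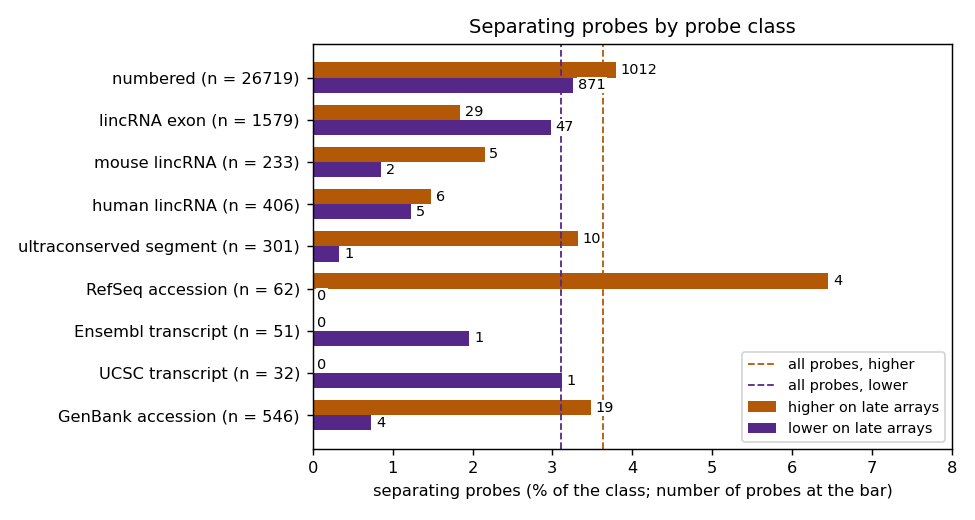
Share of each probe class, in percent, that was higher or lower on the late arrays, with the number of probes at the bar and the shares over all probes as dashed lines (3.63% higher, 3.11% lower). lincRNA exons have more lower (47) than higher (29) probes, and ultraconserved segments more higher (10) than lower (1).

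The named lncRNA with the largest distance between the groups was lincRNA exon MM9LINCRNAEXON10263-, for which, as for the other probes named here, the rule chose the direction. Its log2 intensity was 7.98 on Day 2 and 8.00 on Day 4, then 3.94 on Day 6, 3.25 on Day 8 and 3.50 on the control. Both early arrays agreed, and none of the late arrays was well above background. The smallest distance between an early and a late array was 4.04, the early mean was at least 14.0-fold higher than the late one, and limma gave an adjusted p of 0.0257. A fold written as "at least" is for a probe that no array of the dimmer group had well above background, and sets each of them at the lowest signal called so there. That call is loose on Day 4, where 52.6% of the negative probe spots pass it, so that no fold is given for a probe under 5.41 on Day 4, the 95th percentile of those spots.

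MM9LINCRNAEXON10264-, the next exon in design number, had values of 8.20 and 9.86 on the early arrays and of 5.46, 4.58 and 5.26 on the late ones, and was well above background on all 5. Its early mean was 15.3-fold higher (limma adjusted p = 0.0321), and the lowest early value lay 2.74 above the highest late one. MM9LINCRNAEXON10523+ was at 6.75 and 8.09 early and at 2.51, 3.78 and 3.44 late, which is at least 9.44-fold (adjusted p = 0.0321). Its opposite strand, MM9LINCRNAEXON10523-, was also among the lower probes. MM9LINCRNAEXON11043- was dimmer, with 4.92 and 5.12 early against 2.51, 2.47 and 2.39 late.

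Exons 10225 to 10283 of the array design held many of the lower probes. They bound the lower probes in the 60 consecutive numbers with the most of them. This stretch was chosen after the values were seen, and whether the design numbers follow the genome is not given in the sources used here. Of its 72 lincRNA exon probes, 12 were lower (16.7%) and 0 higher, while 35 of the other 1507 exon probes were lower (2.32%). Of the 12, 9 were on the minus and 3 on the plus strand. The consecutive exons 10263, 10264 and 10265 were all lower on the minus strand, and 10265 went from 7.67 and 9.63 early to 5.63, 5.51 and 6.02 late.

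**Figure D4:**
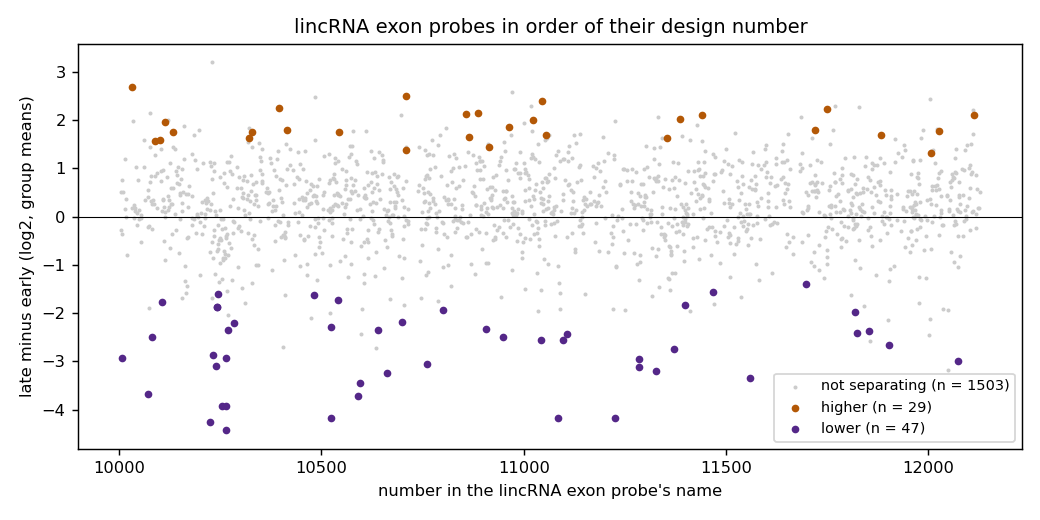
Difference between the late and early mean log2 intensity of each of the 1579 lincRNA exon probes, by the number in its name. Separating probes are coloured (29 higher, 47 lower), and 12 of the lower ones lie between the numbers 10225 and 10283.

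The strands of an exon could be compared where both had a probe. Both strands were in the table for 361 exons. In 33 of them 1 strand alone was lower, in 12 of them 1 strand alone was higher, in 2 (10242 and 10523) both were lower, and in 0 both were higher or the strands went opposite ways. Since 2.98% of all exon probes were lower, a partner that did not separate is the usual case. The late minus early difference of the 33 partners ranged from -2.04 to 0.78, and 6 of them were more than 1 lower. The plus strand of exon 10264 was at 12.91 and 13.67 early and 12.62, 12.90 and 13.11 late, so that the groups overlapped and the means differed by -0.40 while the minus strand differed by -3.93. Likewise the plus strand of exon 10254 stayed between 12.55 and 13.11 on all 5 arrays, and its minus strand went from 6.68 and 9.07 to 3.53, 3.75 and 4.61.

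The study named lncRNAs of its clusters from these same arrays, so they are not independent of the contrast. Of the 43 names, 6 match a probe. Of those, 3 separated, and all 3 were lincRNA exons that were lower on the late arrays, namely MM9LINCRNAEXON10523+ (above), MM9LINCRNAEXON10225- and MM9LINCRNAEXON10254-. Of these 3, MM9LINCRNAEXON10225- had the widest early pair, with 6.35 on Day 2 and 8.90 on Day 4. MM9LINCRNAEXON10225- was at 2.51, 3.58 and 4.05 late (limma adjusted p = 0.0377), with 1 of 3 late arrays well above background. The other 3 did not separate. MM9LINCRNAEXON11613+ was at 8.60 on Day 2 but at 2.72 on Day 4, and its late values of 4.90, 5.76 and 5.86 lay between them. The early values of MM9LINCRNAEXON10527+ (2.81 and 5.62) and of uc.64+ (2.41 and 4.70) likewise spanned most of their late values.

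The exon probes with the largest distances upward started near the lowest values of the table. Of the 29 higher exon probes, 7 were called well above background on both early arrays, though that call is loose on Day 4. Of these 7, MM9LINCRNAEXON10088+ (7.55), MM9LINCRNAEXON11056- (7.82) and MM9LINCRNAEXON11442+ (5.74) exceeded 5.41 on Day 4, the 95th percentile of the negative probes. MM9LINCRNAEXON10415- (4.77), MM9LINCRNAEXON10914- (4.17), MM9LINCRNAEXON11720- (3.93) and MM9LINCRNAEXON12006- (4.57) lay below that level on Day 4. MM9LINCRNAEXON10032- was at 2.41 on Day 2 and 2.65 on Day 4 and reached 4.92, 5.51 and 5.21, with a smallest distance of 2.27 (limma adjusted p = 0.0321). MM9LINCRNAEXON10888+ went from 2.73 and 2.63 to 5.05, 4.65 and 4.74. MM9LINCRNAEXON10708- went from 3.25 and 2.48, neither well above background, to 5.01, 5.50 and 5.57. MM9LINCRNAEXON11386- was at 2.99 and 2.39 early and at 4.61, 4.74 and 4.79 late. In MM9LINCRNAEXON10032-, MM9LINCRNAEXON10888+, MM9LINCRNAEXON10708- and MM9LINCRNAEXON11386- the 3 late values lay within 0.59 of each other.

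Among ultraconserved segments, uc.173- had the largest distance, 2.16. It was at 2.86 and 2.57 early, not well above background, and at 5.41, 5.02 and 5.26 late (limma adjusted p = 0.0321). On the OGD arrays it lay between 3.21 and 4.67, and was well above background on 1 of them. uc.336- was at 2.65 and 2.47 early and at 4.69, 4.79 and 4.63 late, and stayed between 4.59 and 5.61 on the OGD arrays. uc.258+ was the brightest of the class to separate. It was well above background on all 5 arrays, at 7.16 and 7.03 early and 9.03, 8.39 and 8.28 late, which is 2.78-fold, and lay between 8.96 and 9.72 on the OGD arrays, though its limma adjusted p was 0.0628. uc.6- went from 3.18 and 3.42 to 4.62, 5.20 and 5.38, but lay between 3.31 and 4.17 on the OGD arrays, with 1 of them well above background. The 1 lower segment, uc.338-, was at 5.05 on Day 2, 6.88 on Day 4 and then 3.90, 3.78 and 3.89.

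The human and mouse lincRNA probes that separated were few. humanlincRNA2296+ was bright on every array, with 16.04 and 16.02 early and 14.89, 14.49 and 13.80 late, so that its early mean was 3.11-fold higher (limma adjusted p = 0.0628). humanlincRNA0538+, at 8.78 and 11.54 early and 7.73, 7.78 and 7.43 late, was also well above background on all 5 arrays. The other 3 lower human probes were not so on any late array. These were humanlincRNA1627+, at 5.32 and 5.10 early against 2.51, 3.63 and 2.72, and humanlincRNA0170+ and humanlincRNA1563+, at 4.71 and 4.79 and at 4.82 and 4.85 early. Of the higher ones, humanlincRNA1230- was at 4.05 and 2.56 early and 5.55, 5.40 and 5.66 late. humanlincRNA1612- went from 3.25 and 2.44 to 4.79, 5.01 and 4.33, and humanlincRNA2028- from 4.60 and 4.24 to 5.67, 5.82 and 5.81. Among mouse lincRNAs, mouselincRNA0753+ was 2.91-fold lower late (8.93 and 8.86 against 7.78, 7.21 and 7.08). mouselincRNA0394+ was also lower (5.90 and 6.76 against 4.25, 4.71 and 4.57), with 2 of its 3 late arrays well above background. mouselincRNA1671-, mouselincRNA0892- and mouselincRNA1052+ were higher late, the last from 4.28 and 3.51 to 5.88, 5.61 and 5.47.

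**Figure D5:**
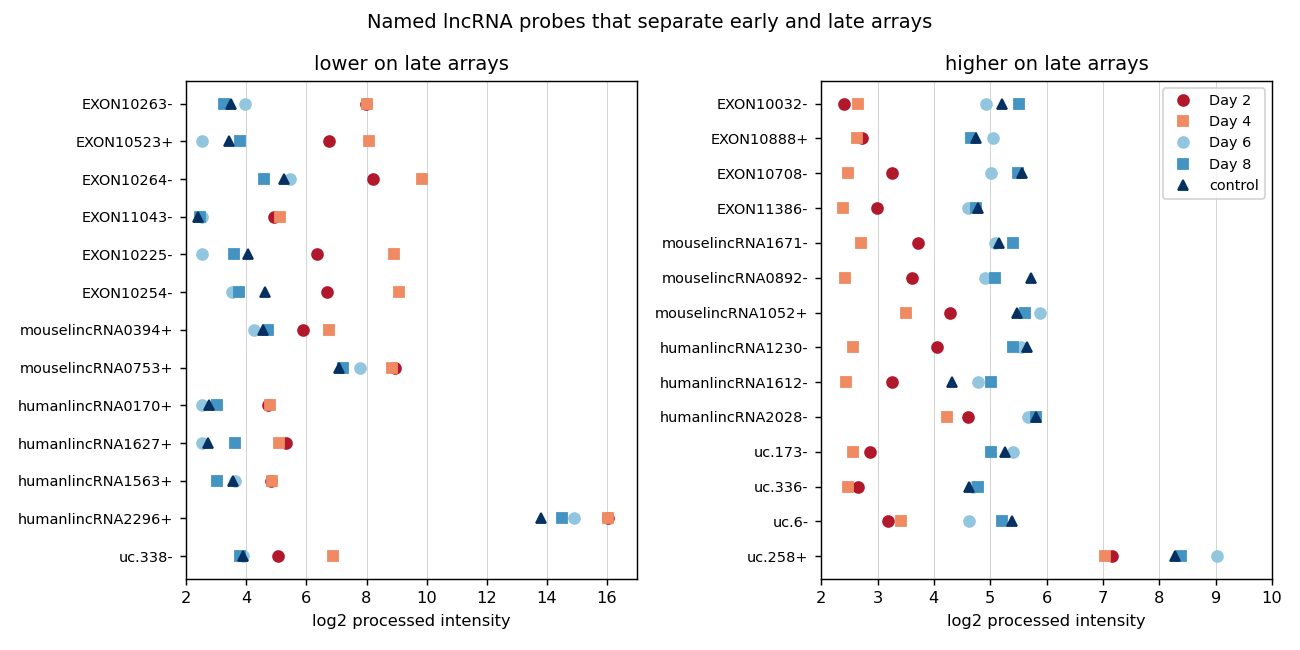
Log2 processed intensity of the named lncRNA probes that separated, with 1 point for each of the 5 arrays. On the left, the early points (red) lie to the right of all late points (blue), and Day 4 is often the farthest; on the right, both early points lie to the left.

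With every dim value raised to the common level of 5.41, 7 of the 31 separating probes that the rule for named probes picks still did so. These were MM9LINCRNAEXON10254-, MM9LINCRNAEXON10523+, MM9LINCRNAEXON10263-, MM9LINCRNAEXON10264-, mouselincRNA0753+, humanlincRNA2296+ and uc.258+. After normexp background correction 5 of the 31 did, the same list without mouselincRNA0753+ and uc.258+. With scaling to the 75th percentile 25 did, and the 6 that no longer separated were mouselincRNA0753+, humanlincRNA1612-, humanlincRNA2028-, humanlincRNA2296+, uc.6- and Fam177a2.

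Protein-coding genes could be named for 57 RefSeq probes of the table, most of them members of gene families or genes beside them. On the late arrays 4 were higher and 0 lower, where 3.63% and 3.11% of all probes were. None of the 4 separated after normexp correction or with dim values at the common level of 5.41. Aida, which binds axin and restrains JNK signalling, was at 4.72 and 3.60 early and 5.85, 6.02 and 6.82 late (smallest distance 1.13, limma adjusted p = 0.0546). Its neighbours on chromosome 1 did not separate, though their late means were also higher, by 1.48 for Mia3, which helps load large cargo for export from the endoplasmic reticulum, by 1.70 for Disp1, which releases Hedgehog ligands, by 1.03 for Taf1a, a subunit of the RNA polymerase I selectivity factor, and by 0.27 for Brox.

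Gm13305 was at 3.54 and 2.91 early and 5.61, 6.62 and 6.38 late (limma adjusted p = 0.0322; 1 of 2 early arrays well above background). Fam205a2 was at 3.82 and 2.59 early and 5.53, 5.64 and 5.89 late (limma adjusted p = 0.0359), and was likewise well above background on 1 of the 2 early arrays. They lie 5 genes apart on chromosome 4, where genes are present in near-identical copies, and their probes may read more than 1 copy. Fam177a2, also 1 of a pair of copies, went from 4.55 and 3.73 to 6.10, 5.58 and 6.06. Over the 57 probes the late mean was the higher one in 50, with the groups overlapping in 32. Over all probes of the table the late mean was the higher one in 65.8%. Vamp7, a vesicle fusion protein of growing neurites, was at 8.37 and 7.92 early and 8.83, 8.66 and 8.75 late, a distance of 0.29. Hmgcs1, an early enzyme of cholesterol synthesis, was at 13.37 and 13.03 early and 13.71, 13.32 and 13.46 late, and its groups overlapped. Ccl21c, a chemokine gene with near-identical copies, was the gene with the most negative difference, -1.09, at 9.59 and 10.88 early and 8.73, 9.42 and 9.26 late.

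The 15 reference genes of the array, which are not in the deposited table and were read from the scanner signals after quantile normalization, had 0 separating members. All late values lay above both early values in 6 of the 15 and below in 0, where 30.0% of all probes lay above and 14.8% below. Gapdh, the glycolytic enzyme used as the study's qPCR control, was at 12.70 and 12.36 early and 13.32, 13.18 and 13.15 late, 1.61-fold higher. In the paper's qPCR its cycle thresholds did not differ significantly between time points, and array intensity is another measure. Hprt, of purine salvage, was at 9.34 and 9.17 early and 9.91, 10.05 and 10.23 late, 1.75-fold higher. With scaling to the 75th percentile the differences grew from 0.69 to 1.45 for Gapdh and from 0.81 to 1.59 for Hprt. Other reference genes also moved under that setting. Nono went from 0.14 to 0.99 and Ppia from 0.50 to 1.11, while Gusb fell from 1.37 to 0.84 and Ldhal6b from 0.03 to -0.54. Actb, cytoplasmic actin, was at 13.07 and 13.02 early and 12.41, 12.63 and 13.02 late, a difference of -0.35 that became 0.44 with scaling to the 75th percentile. Tuba1b, an alpha-tubulin of growing axons, was at 12.55 and 12.39 early and 12.41, 12.90 and 13.31 late, and its groups overlapped. Gusb was well above background on 1 of the 5 arrays and Ldhal6b on 0.

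Of the probes known only by number, these had the largest distances in each direction. ASMM9PARTA050062 was at 5.47 and 5.22 early and 9.03, 9.39 and 9.53 late, and was back at 3.50 on the 8 hr OGD array. ASMM9PARTA030426 was at 2.41 and 2.47 early and 5.93, 6.60 and 6.27 late. ASMM9PARTA039693 went the other way, from 7.23 and 7.60 to 2.51, 2.47 and 2.39, at least 9.41-fold lower, and had the smallest adjusted p of the limma fit, 0.0185. ASMM9PARTA042493 went from 9.14 and 8.78 to 4.74, 4.29 and 4.71, with 2 of 3 late arrays well above background. Their transcripts are not named in the sources used here.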

How the data were processed

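For each Cy3 array the authors deposited Agilent spot values (Feature Extraction version 11.0.1.1), and for all arrays together a table of processed intensity in 29929 rows, which the methods describe as quantile normalized. Its log2 was the main value here. On every array of the comparison but Day 4, 95% of the deposited log2 values lay within 0.025 of the spot signal quantile normalized here, and within 0.17 on Day 4. Spots marked as outlying were dropped, and the log2 values of a probe's remaining spots were averaged. For a probe with several spots, the majority decided whether it was well above background. Groups follow the labels. Named probes were, in each lncRNA class, the 4 with the largest distance in each direction whose higher group was well above background throughout, the reference genes, the study's cluster list, and up to 10 genes in each direction named through RefSeq (GRCm38.p6, 101 of 108 accessions matched, and 15 of 15 reference genes). Members and lists were chosen with earlier results of these data known. Precision is limited by the number of arrays. The rule and limma were tested on simulated data. Alternatives were other thresholds, scalings, background corrections and filters, and each array left out. Python 3.11.15, numpy 2.4.6, pandas 2.3.3, matplotlib 3.10.9, R 4.3.3 and limma 3.58.1 were used.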

Additional observations from a re-analysis of the deposited data

Results flagged for a closer look

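Control spots stood out on Day 4, and of these the negative probes were used above to set a level for dim signals. Of the spike-in control spots, 72.9% were called well above background in the Day 4 scan, against 12.6% to 26.1% on the other 8 arrays, and their median signal was 38.5 against 3.15 to 7.93. Of the negative probe spots 52.6% were, against 0% to 9.40% on the others. The part of this in the Day 4 values of the lower probes was not tested.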

How the results depend on the processing

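The counts below are for all separating probes, with the higher and the lower ones in brackets, and then for the 4 lncRNA classes. At a distance over 0 they were 13404 (8989, 4415) and 950, over 1.5 they were 750 (299, 451) and 38, and over 2 they were 260 (77, 183) and 13. Normexp correction with an offset of 50, run on the median pixel signal, gave 183 (54, 129) and 10, and shares 54 of the 1085 higher and 119 of the 932 lower probes with the main values. The common floor gave 561 (195, 366) and 30, and probes well above background throughout gave 638 (335, 303) and 32. Scanner values of all transcript probes detected on any of the 5 arrays gave 4040 (1444, 2596) and 262, so that 35.7% and not 53.8% were higher. A difference of means over 1 gave 8125 (5218, 2907) and 601. limma called 1303 (659, 644) and 72. Stricter or looser distances and filters admit fewer or more probes by construction, and for the other settings the cause was not tested. Leaving out each array in turn gave 2386 to 9150 (1322 to 6089, 1037 to 3061) and 130 to 684, with the upper end without Day 2. Differences over 1 within groups, summed over the 4 pairs, went from 17796 to 8877 among probes well above background throughout. The scanner signal, quantile normalized over 9 or 5 arrays or scaled to the 75th percentile, kept each count of all, higher, lower and lncRNA class probes within 1.5 times. Scaling to the 75th percentile turned the balance, with 924 higher and 1041 lower probes (47.0% higher against 53.8%), and 38.1% against 47.6% higher in the lncRNA classes. Scaling moved the median late minus early difference from 0.29 to 0.39, and 561 of the 1085 higher and 848 of the 932 lower probes were shared with the main values. No separating named probe changed sign under any setting run for it. With an array left out, the rule that chose these probes fixes the sign, so those settings could not show a change. No paired analysis was possible because the replicate numbers follow accession order alone and pair nothing. A setting added after seeing the data dropped the separating probes that entered the table through an OGD array, and 1411 of 1618 lay on the late side of both early arrays on all OGD arrays (1719 of 2017 otherwise).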

Other observations

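Genes of the Y chromosome, many of them in families of near-identical copies known from the testis, had 10 named probes in the table. On the OGD arrays 7 of them were not well above background on any array, with no log2 intensity over 4.00, whereas on the control they lay between 4.89 and 6.63 and were well above background in all 7, as on Day 8 (4.50 to 5.74). On Day 6 the 7 ranged from 2.51 to 5.18, and Gm20867, Gm20816 and Gm20917 were not well above background there. Of all 29929 probes, 1.99% were well above background on Day 8 and the control and on no OGD array. Gm20747 was at 5.61 and 5.03 early, 5.18, 5.74 and 6.63 late, and between 2.38 and 2.54 on the OGD arrays. Ssty2 was at 4.84 and 2.66 early, 4.72, 4.68 and 5.54 late, and between 2.43 and 3.32 on the OGD arrays. Gm20854 was at 4.44 and 3.25 early, 5.02, 5.30 and 5.84 late, and 5.09, 4.16, 3.31 and 3.74 after 2 to 8 hr of OGD, with 2 of the 4 OGD arrays well above background. Gm20823 and Gm20738, also on Y, lay between 8.53 and 10.18 on the 9 arrays. These probes were picked after their values were seen, and no test was made.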
